A study of Hordeum vulgare with 12 samples.

Results

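Root and shoot were compared in barley (Hordeum vulgare, cultivar Golden Promise) grown with excess nitrogen, using 6 of the 12 small RNA libraries of the study. The 3 nitrogen-excess root and 3 nitrogen-excess shoot libraries came from plants 2 weeks old, grown in perlite with a medium holding 280 mM NH4NO3. The other 6 libraries, 3 control root and 3 control shoot, came from plants of the same cultivar and age at 28 mM NH4NO3 in the same medium. The labels call the libraries of a group biological replicates, do not say whether roots and shoots that share a number were cut from the same individuals, and place seedlings as pairs in a pot. The members were chosen from the labels alone, and root and shoot counts of the same listed sequence were joined and scaled together.

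MicroRNAs (miRNAs) are short RNAs cut from hairpin precursors, and they guide Argonaute proteins to matching messenger RNAs, which are then cleaved or held back from translation. A hairpin gives a 5p and a 3p strand, of which one usually acts and the other is usually degraded. Plant miRNA families are often encoded by several precursors with slightly different mature sequences, and the precursors can be active in different organs. In roots and shoots these families are known for setting meristem activity, leaf polarity, vascular patterning, auxin response and the uptake of nutrients.

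The sequences that carried the organ differences are shown first, as DNA letters from the deposited tables, with the seed (bases 2 to 8) in capitals. Positions are counted from 1 at the 5′ end. The prefix names a species in which the sequence is listed (hvu barley, tae wheat, ata goatgrass, bdi Brachypodium, osa rice, gma soybean, ath Arabidopsis, ppt moss), and the same letters were counted here in barley. Where several species share a sequence, the prefix was picked by a fixed order, barley first and then other grasses. It does not say where the sequence was first found. The first set holds the members of conserved families whose share of their own family differed between organs, with the most abundant member of each family.
bdi-miR319b-3p: tTGGACTGaagggtgctccct
tae-miR319: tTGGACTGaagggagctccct
ppt-miR319c: cTTGGACTgaagggagctccc
ata-miR171a-3p: tGAGCCGAaccaatatcactc
osa-miR171e-5p: tGTTGGCTcggctcactcaga
hvu-miR166b: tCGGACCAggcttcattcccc
bdi-miR166h-3p: tCGGACCAggcttcaatccct
tae-miR160: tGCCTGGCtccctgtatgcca
bdi-miR160e-5p: tGCCTGGCtccctgaatgcca
ata-miR396c-5p: tTCCACAGctttcttgaactt
ata-miR396e-3p: gTTCAATAaagctgtgggaaa
gma-miR396e: tTCCACAGctttcttgaactgt
ata-miR167d-5p: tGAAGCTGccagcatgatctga
ata-miR167a-3p: gATCGTGCtgtgacagtttcacc
osa-miR444b.1: tGTTGTCTcaagcttgctgcc
osa-miR444d.3: tTGTGGCTttcttgcaagttg

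The second set holds the sequences of small families that marked one organ: 3 barley entries higher in root, the 3 entries called higher in shoot, and abundant root-weighted entries that resemble pieces of transfer RNA (tRNA).
hvu-miR6181: tGCTCTTCatggactgcggcgcc
hvu-miR6177: tACCATGGacagaaggcactta
hvu-miR6198: gCTCTGTCttggatggtcattc
tae-miR9774: cAAGATATtgggtatttctgtc
gma-miR5368: gGACAGTCtcaggtagaca
hvu-miR5049a: tCCTAAATacttgttgttggg
gma-miR6300: gTCGTTGTagtatagtgg
ath-miR8175: gATCCCCGgcaacggcgcca
bdi-miR5054: tCCCCACGgtcggcgcca
osa-miR5072: cGATTCCCcagcggagtcgcca

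Several of these differ by single bases. Against bdi-miR319b-3p, tae-miR319 carries T14A with an unchanged seed, and ppt-miR319c carries the same T14A and starts 1 base earlier. Against hvu-miR166b, bdi-miR166h-3p carries T16A and C21T. Against tae-miR160, bdi-miR160e-5p carries T15A. The entries ath-miR8175, bdi-miR5054 and osa-miR5072 end in CCA, the bases that mature tRNAs carry at the 3′ end. The miR160 entries tae-miR160 and bdi-miR160e-5p also end in CCA, so this ending alone does not mark a tRNA piece. The sources used here do not say how reads that fit several near-identical entries were counted, so differences between entries that are 1 base apart remain uncertain to that extent.

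The 6 libraries held 451297, 1377990 and 1590461 counts in root 1, 2 and 3, and 2246495, 779326 and 245176 in shoot 1, 2 and 3, over listed miRNA sequences. Of the 3258 listed sequences, 614 had a count in at least 1 of the 6 libraries. Library names place replicate 1 of all groups in one series and the rest in another, apart from nitrogen-excess root 3, which stands alone in its own series. Organ-defining messenger RNAs were not analysed here, so the organ labels were set against the control libraries. On an axis from the mean control shoot (0) to the mean of control root 1 and 2 (1), over 177 sequences, the nitrogen-excess roots lay at 0.67, 0.93 and 0.95 and nitrogen-excess shoot 1 and 2 at 0.10 and 0.13. Among the roots, at 0.74, was also the library labelled nitrogen-excess shoot 3. Among the shoots, at 0.02, was the library labelled control root 3. Both go against their labels. Their names carry neighbouring numbers within one naming series. Whether the 2 labels were exchanged was not tested, each library was kept in its labelled group, and values from 6 libraries hold only as far as the labels do. Most differences below are given with and without the library labelled nitrogen-excess shoot 3, and values of control roots are given without the library labelled control root 3 unless it is named. Since that library was left out because of its profile, p-values without it are not independent of that choice.

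**Figure D1:**
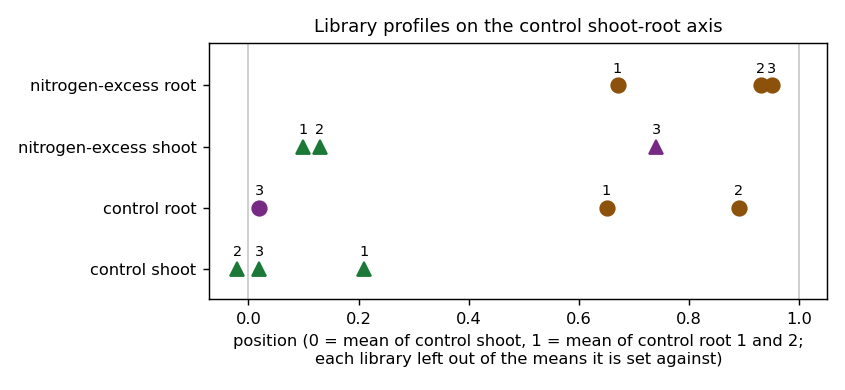
Position of each of the 12 libraries (number = replicate) between the mean of control shoot (0) and the mean of control root 1 and 2 (1), from log2 levels of 177 sequences, each library being left out of the means it is set against. On the root side, at 0.74, is the library labelled nitrogen-excess shoot 3, and on the shoot side, at 0.02, that labelled control root 3.

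With the library labelled shoot 3 left out, the smallest p belonged to minor forms of miR319, a family that restrains TCP transcription factors, which limit cell proliferation in leaves. The level of ppt-miR319c, in CPM (a library's counts scaled to a common total) after TMM scaling of the 6 libraries together, was 1451, 1405 and 2857 in the roots. It was 9.74 and 14.4 in nitrogen-excess shoot 1 and 2, and 1580 in the library labelled nitrogen-excess shoot 3. The roots thus lay far above shoot 1 and 2, and the library labelled shoot 3 lay within the root range. In such whole-organ samples, fewer cells of a type and less of an RNA per cell cannot be told apart. Its sister tae-miR319 stood at 3099.9, 2179.7 and 8722 CPM in the roots, 17.6 and 47.3 CPM in shoot 1 and 2, and 1411 CPM in the library labelled shoot 3. In this scaling the 2 organs did not overlap for tae-miR319 even with that library, although that library was much nearer to the roots.

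When the library labelled shoot 3 was left out, ppt-miR319c was higher in root by 7.33 ± 1.10 on the log2 scale (SE, n = 3 root and 2 shoot libraries; edgeR quasi-likelihood test, adjusted p = 0.00868). The difference of tae-miR319 was 7.20 ± 1.22 (adjusted p = 0.0117, edgeR). With all 6 libraries the same differences were 1.84 ± 1.47 and 3.25 ± 1.43, with adjusted p of 0.647 and 0.436 (edgeR). The family total did not carry this difference. miR319 as a family stood at 33038, 10122 and 28393 CPM in the roots and 5743, 22057 and 13729 CPM in the shoots, where the organs overlap (adjusted p = 0.802, edgeR).

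The share of a family held by one member does not depend on how libraries are scaled. These shares were chosen after their values were seen and are given as a description, since an exact test of 3 against 2 libraries cannot go below a p of 0.2. tae-miR319 held 8.71%, 19.6% and 24.3% of the miR319 counts in root 1, 2 and 3. It held 0.305% and 0.218% in shoot 1 and 2 and 15.2% in the library labelled shoot 3. ppt-miR319c held 4.08%, 12.6% and 7.95% in the roots against 0.169% and 0.0666% in shoot 1 and 2, while the library labelled shoot 3, at 17.0%, exceeded every root. bdi-miR319b-3p made up 97.7% and 96.9% of miR319 in shoot 1 and 2, 67.0% in the library labelled shoot 3, and 85.6%, 66.4% and 67.3% in the roots. The control libraries showed the same split, with tae-miR319 at 4.85% and 18.8% in control root 1 and 2 and between 0.114% and 0.169% in the 3 control shoots. The library labelled control root 3 held 0.438%.

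miR171, which targets the HAM group of GRAS transcription factors that maintain meristems, had a different main product in each organ. The 3p form ata-miR171a-3p made up 66.4%, 95.9% and 94.9% of miR171 counts in the roots. It made up 10.03% and 7.19% in shoot 1 and 2, and 91.0% in the library labelled shoot 3. In those 2 shoots the 5p strand led instead, with osa-miR171e-5p at 31.9% and 67.5% and hvu-miR171-5p at 24.0% and 20.4%. In the roots osa-miR171e-5p held 19.3%, 1.55% and 1.46%, and in the library labelled shoot 3 it held 5.06%. Root 1 stood between the other roots and the shoots in both strands.

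The level of ata-miR171a-3p was 3619, 9414.5 and 5426 CPM in the roots, 110.4 and 305 CPM in shoot 1 and 2, and 3714 CPM in the library labelled shoot 3. It was higher in root by 4.91 ± 1.00 on the log2 scale without that library (adjusted p = 0.0240, edgeR) and by 2.16 ± 1.20 with it (adjusted p = 0.485, edgeR). For osa-miR171e-5p the difference without that library was -1.91 ± 1.20 (adjusted p = 0.374, edgeR) and with it -1.42 ± 1.23 (adjusted p = 0.647, edgeR), which does not exceed the spread between libraries. The family as a whole was not called in either comparison (adjusted p = 0.871 with 6 libraries and 0.440 with 5, edgeR). In control plants ata-miR171a-3p held 82.6% and 94.1% of miR171 in control root 1 and 2, 5.83% in the library labelled control root 3 and 4.37% to 7.66% in the control shoots.

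miR166 represses class III homeodomain-leucine zipper genes, which set the upper side of leaves and pattern root vessels, and it was the most abundant family. Its main form hvu-miR166b alone took 69.0%, 61.5% and 46.2% of all counts in the roots and 43.6%, 54.7% and 75.0% in the shoots, so the organs overlapped. A minor form was shoot-weighted within the family. bdi-miR166h-3p held 7.09% and 5.40% of miR166 in shoot 1 and 2, and 1.23%, 0.214% and 0.281% in the roots. The library labelled shoot 3 held 0.546%, inside the root range. The 3 control shoots held 5.24% to 7.13% and control root 1 and 2 held 0.411% and 0.124%. As a level, bdi-miR166h-3p differed by -2.34 ± 0.95 without the library labelled shoot 3 (adjusted p = 0.138, edgeR) and by -1.86 ± 1.09 with it (adjusted p = 0.499, edgeR), and was not called. Without that library it was called once the replicate number was added as a block (adjusted p = 0.0467, edgeR).

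miR160 and miR167 both act on auxin response factors, the former on repressive and the latter on activating ones. Within miR160, bdi-miR160e-5p held 31.5% and 29.9% in shoot 1 and 2 and 9.09%, 3.97% and 0% in the roots, with 4.26% in the library labelled shoot 3. The family had few counts, and the 95% Wilson half-width of these shares was up to 7.82 percentage points. Within miR167, ata-miR167a-3p, the strand opposite to the usual guide, held 10.8%, 9.51% and 18.0% in the roots, 0.904% and 0.465% in shoot 1 and 2, and 3.85% in the library labelled shoot 3. The roots lay above every shoot library in this share. Its level was 1204, 2089 and 2389 CPM in the roots, 158.9 and 80.1 CPM in shoot 1 and 2, and 641 CPM in the library labelled shoot 3. The difference was 4.01 ± 0.93 without that library (adjusted p = 0.0320, edgeR) and 2.70 ± 1.04 with it (adjusted p = 0.394, edgeR).

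miR396 targets growth-regulating factors, which promote cell division in leaves and root tips. Its 5p guide ata-miR396c-5p held 92.1%, 68.9% and 45.4% of the family in the roots and 97.8%, 93.6% and 82.9% in the shoots. The 3p strand ata-miR396e-3p held 2.95%, 24.0% and 43.1% in the roots, 0.361% and 0.575% in shoot 1 and 2, and 8.02% in the library labelled shoot 3. The spread among the 3 roots was wide, and root 1 lay below the library labelled shoot 3. Once that library was left out, ata-miR396e-3p was higher in root by 3.78 ± 1.10 (adjusted p = 0.0491, edgeR), and gma-miR396e, a variant of the 5p guide with T21G and 1 base more at the 3′ end, by 3.49 ± 0.96 (adjusted p = 0.0441, edgeR). With all 6 libraries these differences were 2.46 ± 1.10 and 1.67 ± 1.05, and neither was called (adjusted p = 0.436 and 0.516, edgeR). The family total had the opposite order, with 7001, 5230.2 and 2782 CPM in the roots and 16833, 16495 and 7662 CPM in the shoots. In this scaling of the families every shoot library, including the one labelled shoot 3, lay above every root. The family difference was -1.45 ± 0.75 with 6 libraries (adjusted p = 0.494, edgeR) and -1.86 ± 0.80 with 5 (adjusted p = 0.0561, edgeR), so it was not called.

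miR444, a cereal family that represses MADS-box genes related to the nitrate-responsive ANR1 of Arabidopsis, had a root-weighted minor form. osa-miR444d.3 stood at 67.9, 47.4 and 184 CPM in the roots, 3.52 and 1.31 CPM in shoot 1 and 2, and 28.2 CPM in the library labelled shoot 3. All 3 roots lay above all 3 shoots. The difference was 5.22 ± 1.16 without that library (adjusted p = 0.0320, edgeR) and 3.39 ± 1.19 with it (adjusted p = 0.394, edgeR). Its counts were small, at 22, 38 and 334 in the roots and 13 and 1 in shoot 1 and 2. The main form osa-miR444b.1 held 85.2% to 96.7% of the family in all 6 libraries. ata-miR164c-3p, the strand opposite to the guide of a family that represses NAC genes of organ boundaries, was also higher in root without the library labelled shoot 3, by 3.40 ± 1.04 (adjusted p = 0.0499, edgeR), and differed by 2.03 ± 1.07 with it (adjusted p = 0.485, edgeR).

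**Figure D2:**
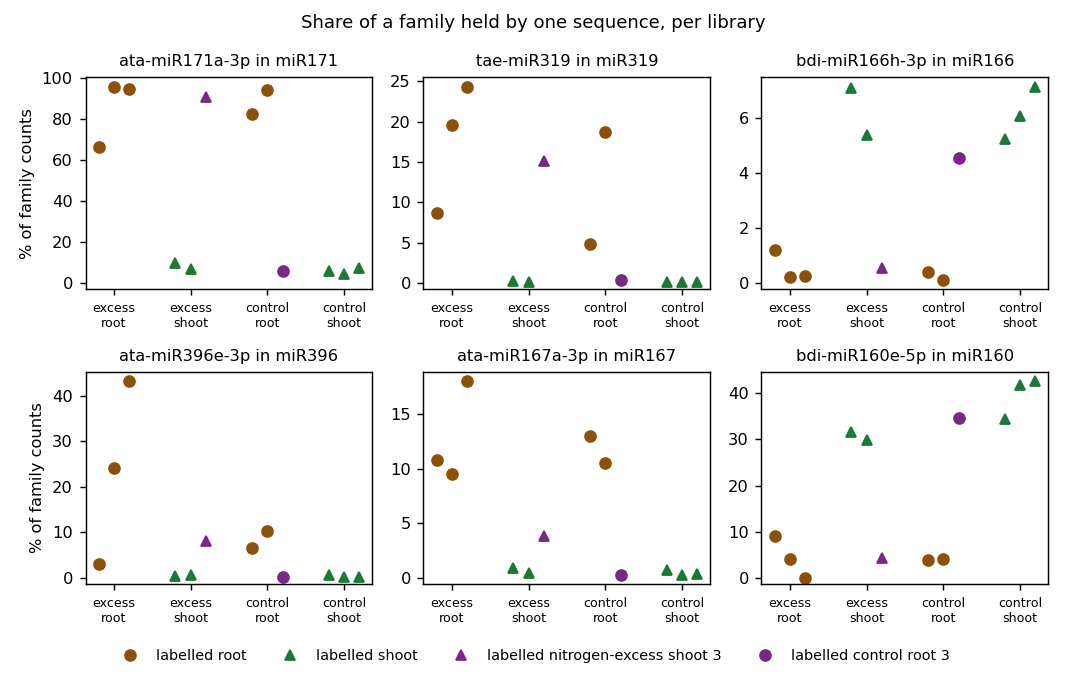
Percentage of a family's counts held by one sequence in each of the 12 libraries, with circles for libraries labelled root, triangles for libraries labelled shoot and purple for the 2 libraries that go against their labels. ata-miR171a-3p holds 66.4% to 95.9% of miR171 in the nitrogen-excess roots and 7.19% and 10.03% in nitrogen-excess shoot 1 and 2, and bdi-miR166h-3p shows the opposite order within miR166.

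Across all measured sequences the comparison of 3 roots with 3 shoots called nothing. With 6 libraries 0 of 149 sequences were called at an adjusted p below 0.05 (0%, edgeR quasi-likelihood test), 16 had an unadjusted p below 0.05 (10.7%), DESeq2 called 1 and limma-voom called 0. The organs did not overlap in 23 sequences (15.4%), with all roots above in 18 (12.1%) and all shoots above in 5 (3.36%). These numbers hold for the scaling of the sequences and differ under that of the families, given below. The smallest p with 6 libraries belonged to osa-miR5083, an entry listed from rice, at 105, 23.7 and 118 CPM in the roots and 5.96, 2.63 and 3.13 CPM in the shoots. All roots lay above all shoots, and the difference was 4.26 ± 1.06 (unadjusted p = 0.00128, adjusted p = 0.191, edgeR) and 4.18 ± 1.12 without the library labelled shoot 3 (adjusted p = 0.0441, edgeR). The labels do not give a pairing by replicate number. With that number entered as a block and all 6 libraries, 18 sequences were called, 16 higher in root (10.7% of those tested) and 2 lower (1.34%). Of these 18, 17 were also called without the library labelled shoot 3, and 10 did not overlap between the 3 roots and the 3 shoots. They included tae-miR319 (adjusted p = 0.00083 in that edgeR fit), osa-miR444d.3 and osa-miR5083 (0.000953 each), ppt-miR319c (0.00133), ata-miR167a-3p and ata-miR171a-3p (0.0228 each), and, lower in root, bdi-miR160e-5p and gma-miR5368 (0.0314 each).

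Without the library labelled shoot 3, 28 of 170 sequences were called (16.5%), 25 of them higher in root (14.7%) and 3 lower (1.76%). The filter asked for enough counts in 2 libraries, so 2 of the 3 roots sufficed for a sequence near 0 in shoot. A sequence near 0 in root needed both shoots. The filter thus favoured root-weighted sequences, and the balance of 25 to 3 cannot be read apart from it. The median difference over all 170 was 0.31 on the log2 scale. These counts lean on single libraries. They were 56 without root 1, 14 without root 2, 2 without root 3, 0 without shoot 1 and 2 without shoot 2, each in addition to the library labelled shoot 3. Over 10 other ways of processing the same 5 libraries, ppt-miR319c, tae-miR319, ata-miR171a-3p, osa-miR444d.3, hvu-miR6181 and tae-miR9774 were called in all 10. The 28 called sequences had 28 different seeds, so no seed was shared among them. The seeds of ppt-miR319c and tae-miR319, however, differ only because the former starts 1 base earlier.

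For 26 of the 28 a level in the 6-library scaling was available, and in 24 of them (92.3%) the library labelled shoot 3 was nearer on the log2 scale to the root mean than to the mean of shoot 1 and 2. Over all 149 sequences this held for 79.2%. Of the same 26, 11 had every root above every shoot and 1 had every shoot above every root, together 46.2%. Over all 149 sequences these were 18 and 5, together 15.4%. The 26 were picked by a root-shoot difference in 5 of the same libraries, so their higher share is no separate support.

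**Figure D3:**
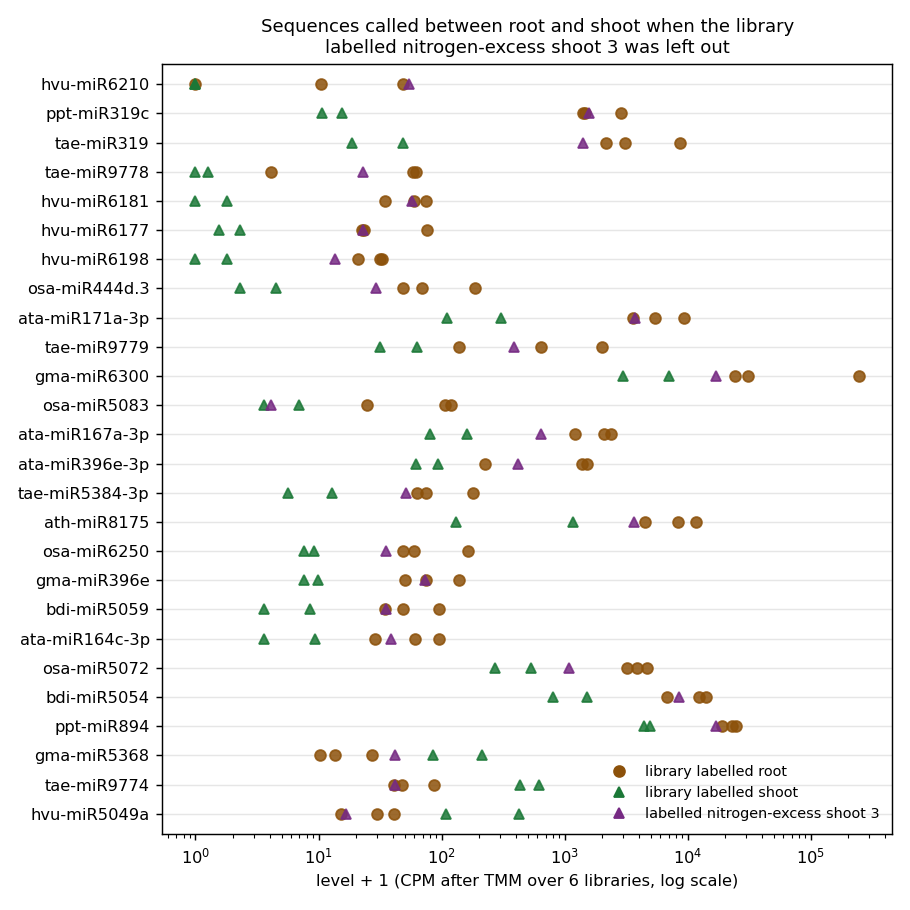
Level (CPM after TMM scaling over 6 libraries, plus 1, log axis) in each nitrogen-excess library of the 26 sequences that were called without the library labelled nitrogen-excess shoot 3 and were also tested with all 6. The purple triangle of that library lies nearer to the root mean in 24 of the 26.

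Among families, 0 of 64 were called with 6 libraries (0%, edgeR; 7 or 10.9% with an unadjusted p below 0.05, 3 by DESeq2, 0 by limma-voom, and 0 with the replicate block). With all 6 libraries the organs did not overlap in 8 of the 64 families (12.5%). All roots lay above in 2 (3.12%) and all shoots above in 6 (9.38%). Full separation of 3 from 3 libraries has an exact permutation p of 0.1 for any single family. A share of 12.5% is thus near what arises without an organ difference. The balance also depends on the scaling. The TMM factor of the library labelled shoot 3 was 1.304 for sequences and 0.883 for families. With the same counts, ath-miR8175 and ppt-miR894 had all roots above as sequences but overlapped as families. Without the library labelled shoot 3, 24 of 75 were called (32%), 19 higher in root (25.3%) and 5 lower (6.67%). As for the sequences, the filter let families near 0 in shoot be tested on their root counts alone, miR6204 and miR6210 among them. The balance of 19 to 5 cannot be read apart from that. The median over the 75 families was 0.09. With the replicate block 22 were called, 19 of them among the 24. The 5 that were not called with the block were miR6204 and miR6250 (adjusted p = 0.0881 each), miR6179 (0.202), miR4995 (0.0806) and miR9773 (0.0690), by edgeR. The count was 31 without root 1, 10 without root 2, 0 without root 3, 1 without shoot 1 and 14 without shoot 2. None of the 10 most abundant families other than miR6300 was called.

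Many families called higher in root were small ones listed from barley or wheat, for which no role is given here. Their share among all families tested was not counted. Families so listed were also called lower in root (miR9774, miR9773 and miR5052) or not called (such as miR5048 and miR9662), so this trait is not particular to root. hvu-miR6181 had 11, 47 and 134 counts in root 1, 2 and 3, and 3 and 0 counts in shoot 1 and 2. Its root-to-shoot ratio was 99.6, with a counting interval of 33.6 to 487, and 14.9 (9.46 to 24.6) once the library labelled shoot 3 was included. Ratios here set summed counts against summed library totals after TMM, so deep libraries weigh most. Shoot 1 had 2246495 counts and the library labelled shoot 3 had 245176, so the latter has little weight in them. Taken by itself, the library labelled shoot 3 held 56.3 CPM of hvu-miR6181, within the root range of 34.0 to 74.0 CPM. hvu-miR6177 had 7, 18 and 137 counts in the roots and 2 and 1 in shoot 1 and 2, a ratio of 84.0 (28.2 to 412), or 26.3 (14.0 to 56.0) with the library labelled shoot 3, which lay above root 1 at 21.9 against 21.6 CPM. hvu-miR6198 had 10, 16 and 58 counts in the roots and 3 and 0 in shoot 1 and 2, a ratio of 43.6 (14.4 to 215), or 19.5 (9.07 to 50.02) with that library.

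tae-miR9778 rested on root 2 and 3, with 1, 49 and 104 counts in the roots and 1 and 0 in shoot 1 and 2. hvu-miR6210 had 0, 38 and 17 counts in the roots and none in either shoot, which is at least 28.5-fold higher when a floor of 3 counts over the 2 shoots is set. With 0 or 1 count, the level of root 1 could not be set apart from the shoots in either. With the library labelled shoot 3 the ratio was 31.3 (15.5 to 73.8) for tae-miR9778 and 5.26 (3.01 to 9.67) for hvu-miR6210, while the fitted differences were 2.87 ± 1.59 and 0.31 ± 1.76 (adjusted p = 0.485 and 0.965, edgeR). The library labelled shoot 3 held 53.2 CPM of hvu-miR6210, above all 3 roots. For the miR6204 family, which was also at 0 in shoot 1 and 2, the bound was at least 27.2-fold. The family differences of the others named by size were 6.16 ± 1.58 for miR6181, 5.29 ± 1.59 for miR6177, 5.15 ± 1.63 for miR6198, 5.25 ± 1.88 for miR6214, 5.11 ± 1.96 for miR9675, 4.50 ± 1.67 for miR6179 and 4.45 ± 1.80 for miR5658, with adjusted p from 0.00332 to 0.0450 (edgeR). All of these exclude the library labelled shoot 3. With 6 libraries miR6181 was at 0.94 ± 1.55, miR6177 at 1.92 ± 1.49, miR6198 at 2.47 ± 1.61 and miR6179 at 0.36 ± 1.76, with adjusted p from 0.628 to 0.954 (edgeR). The other 3, miR6214, miR9675 and miR5658, had too few counts to be tested with 6. miR9779 was more abundant, with tae-miR9779 at 636, 138 and 2008 CPM in the roots and 30.3 and 61.7 CPM in shoot 1 and 2, and 385 CPM in the library labelled shoot 3. Its family difference was 3.93 ± 1.12 without that library (adjusted p = 0.00666, edgeR) and 1.82 ± 1.21 with it (adjusted p = 0.628, edgeR).

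Among the most abundant root-weighted entries were several that resemble tRNA pieces. gma-miR6300, which resembles the 5′ end of a tRNA (no tRNA annotation was used), took 2.23%, 14.4% and 2.77% of all counts in root 1, 2 and 3. It took 0.487% and 0.691% in shoot 1 and 2 and 2.23% in the library labelled shoot 3. The high share of root 2 had a counterpart in control root 2, at 18.2%, while control root 1 held 2.27% and the control shoots 0.156% to 0.562%. ath-miR8175 stood at 8377, 4506.5 and 11785 CPM in the roots, 1167 and 129.97 CPM in shoot 1 and 2 and 3670.0 CPM in the library labelled shoot 3. bdi-miR5054 stood at 14027, 6748.5 and 12301 CPM in the roots against 1518 and 803 CPM in shoot 1 and 2, and osa-miR5072 at 3872, 3213 and 4653 CPM against 534 and 269 CPM. ppt-miR894, which does not end in CCA and was not counted among the tRNA-like entries, stood at 22866, 24899 and 18967 CPM in the roots and 4374, 4961 and 16842 CPM in the shoots. In this scaling of the sequences all 3 roots lay above all 3 shoots for ppt-miR894. In the scaling of the families the same counts gave the opposite for the library labelled shoot 3. There it stood at 24876 CPM, above the roots at 21216, 22659 and 14994 CPM. The difference of ppt-miR894 was 2.27 ± 0.68 without the library labelled shoot 3 (adjusted p = 0.0491, edgeR) and 1.35 ± 0.85 with it (adjusted p = 0.516, edgeR).

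In the scaling of the sequences both ath-miR8175 and osa-miR5072 had all roots above all shoots. There bdi-miR5054 in the library labelled shoot 3, at 8523 CPM, exceeded root 2. In the scaling of the families miR8175, with the same counts as ath-miR8175, overlapped. It stood at 5421 CPM in the library labelled shoot 3 against 4101 CPM in root 2. As families without that library, the differences were 3.97 ± 0.88 for miR6300, 3.45 ± 0.98 for miR8175, 2.97 ± 0.94 for miR5054 and 3.01 ± 0.99 for miR5072 (adjusted p from 0.000691 to 0.0156, edgeR). With 6 libraries they were 2.94 ± 1.10, 1.66 ± 1.08, 0.95 ± 0.99 and 2.09 ± 0.85 in that order, and none was called (adjusted p from 0.294 to 0.802, edgeR). Of the 25 sequences called higher in root, 4 end in CCA (16.0%), against 7 of all 170 tested (4.12%). With the CCA-ending entries and miR6300 left out before scaling, a choice made after seeing the data, the sequences called fell to 9 and the families called were 17. The entries so removed also included tae-miR160, bdi-miR160e-5p and bdi-miR390a-3p. Whether RNA quality or fragmentation differed between the libraries was not tested.

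Few sequences were called higher in shoot, 3 of 170 (1.76%) without the library labelled shoot 3, where the filter favoured root-weighted sequences. tae-miR9774 stood at 613 and 429 CPM in shoot 1 and 2, at 86.5, 39.9 and 46.9 CPM in the roots and at 40.7 CPM in the library labelled shoot 3. The difference without that library was -3.16 ± 0.81 (adjusted p = 0.0404, edgeR), and with it -2.66 ± 1.03 (adjusted p = 0.394, edgeR). hvu-miR5049a stood at 426 and 108 CPM in shoot 1 and 2, at 40.1, 28.7 and 14.4 CPM in the roots and at 15.6 CPM in the library labelled shoot 3, with a difference of -3.26 ± 0.91 without that library (adjusted p = 0.0441, edgeR) and -2.76 ± 1.11 with it (adjusted p = 0.394, edgeR). For both, the library labelled shoot 3 lay near the lower roots.

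gma-miR5368 was the one shoot-weighted sequence called that kept all 3 shoots above all 3 roots. It stood at 211 and 84.0 CPM in shoot 1 and 2 and 40.7 CPM in the library labelled shoot 3, against 9.26, 26.2 and 12.7 CPM in the roots. The difference was -3.14 ± 0.87 without that library (adjusted p = 0.0441, edgeR) and -2.79 ± 0.96 with it (adjusted p = 0.394, edgeR). Among families, miR5052 differed by -4.53 ± 1.59, miR9774 by -3.47 ± 1.00, miR5368 by -3.42 ± 1.08, miR4995 by -3.32 ± 1.17 and miR9773 by -2.70 ± 0.95 (adjusted p from 0.00666 to 0.0217, edgeR, without the library labelled shoot 3). With 6 libraries miR9774 was at -2.87 ± 0.99, miR5368 at -3.06 ± 0.97, miR4995 at -2.92 ± 1.12 and miR9773 at -2.22 ± 1.11, none called (adjusted p from 0.259 to 0.482, edgeR), and miR5052 was not tested. In miR5368 and miR4995 every shoot lay above every root, and the call of miR4995, like that of miR9773, did not hold with the replicate block.

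Most abundant and nutrient-linked families overlapped between the organs, with miR396, above, and miR528, below, among the exceptions with 6 libraries. miR168, which controls ARGONAUTE1, stood at 143560, 200370 and 157090 CPM in the roots and 114560, 174290 and 67492 CPM in the shoots. The difference was 0.49 ± 0.63 with 6 libraries (adjusted p = 0.871, edgeR). miR159, which restrains GAMYB genes, stood at 47353, 18556 and 45297 CPM in the roots and at 85372, 59765 and 8961 CPM in the shoots. The library labelled shoot 3 was the lowest of the 6 and shoot 1 and 2 were the highest.

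The families were also read in 10 lists by known role. With 6 libraries no list had a called member, against 0% of all 64 families. The phosphate list, miR399 (against the ubiquitin-conjugating PHO2) and miR827 (against SPX-domain phosphate transporters), had a median difference of 0.51, beside -0.02 over all families. miR827 stood at 1077, 887 and 2418 CPM in the roots and 844, 864 and 1474 CPM in the shoots, and miR399 at 175, 135 and 890.0 CPM in the roots and 313, 391 and 116 CPM in the shoots. In both families root 3 was the highest library. The sulfate family miR395, against ATP sulfurylase, differed by -0.40.

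All 4 families of the copper list (miR397, miR398, miR408 and miR528, against laccases and other copper proteins) had negative differences, with a median of -0.62 and no call. miR397 stood at 3687, 743 and 602 CPM in the roots and 4673, 2777 and 1072 CPM in the shoots, and miR408 at 1618.5, 201 and 210.0 CPM in the roots and 1552, 577 and 471 CPM in the shoots. Root 1 stood apart from the other roots in both, within the shoot range or above it. miR528 is outside the rule for named families and was described after its values were seen. It stood at 178, 67.0 and 45.0 CPM in the roots and 423, 451 and 199 CPM in the shoots. In this scaling of the families it was the one copper family with every shoot above every root. Its difference was -1.90 ± 0.87 with 6 libraries (unadjusted p = 0.0489, adjusted p = 0.447, edgeR) and -2.33 ± 0.97 without the library labelled shoot 3 (adjusted p = 0.0510, edgeR).

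Of 8 families in the nitrogen-reported list, 0 were called and 3 had positive differences, with a median of -0.16. The auxin list of 4 had a median of -0.08, with miR160 at 158, 258 and 327 CPM in the roots and 271, 232 and 217 CPM in the shoots. The patterning list of 5 had a median of 0.20 and the phase and growth list -0.68 over 5 of its 7 families. miR168 was the sole measured family of the small RNA machinery list. The list of phasiRNA triggers and NLR regulators had 3 of 6 measured, with a median of -0.15, among them miR390, which guides the TAS3 pathway, and miR5048. miR390 stood at 318, 128 and 338 CPM in the roots and 209, 276 and 199 CPM in the shoots. miR5048 stood at 17795, 25567 and 21784 CPM in the roots and 17259, 48587 and 15019 CPM in the shoots. The cereal-enriched list had 7 of 8 measured, with a median of -0.31. When the library labelled shoot 3 was left out, the only list member called was miR5054 of the cereal-enriched list, against 32% of all 75 families.

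**Figure D4:**
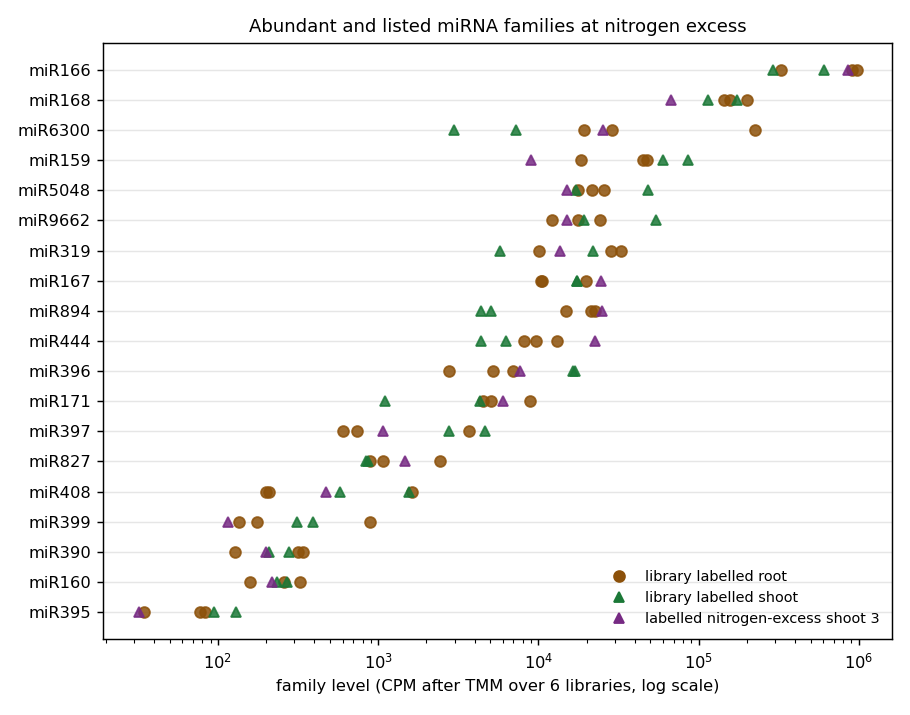
Family level (CPM after TMM scaling over the 6 nitrogen-excess libraries, log axis) of the 10 most abundant families and the 2 most abundant families of each list, with circles for roots and triangles for shoots. In most families the organs overlap, while all 3 shoots of miR396 lie above all 3 roots.

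The length and first base of the counted sequences were compared as shares of counts, leaving out miR166, since it fills much of each library. The 22-nt class held 9.39%, 8.19% and 10.8% in the roots and 13.0%, 16.2% and 16.4% in the shoots, without overlap. The means were 9.46% ± 1.31 and 15.2% ± 1.95 (SD, n = 3 each), with an exact two-sided permutation p of 0.1, the smallest that 3 against 3 libraries can give. The 24-nt class held 0.0970%, 0.0348% and 0.0433% in the roots and 0.512%, 0.118% and 0.117% in the shoots (exact permutation p = 0.1). The library labelled shoot 3 lay with the other shoots in both classes. Over all sequences, miR166 included, the 22-nt class held 2.77%, 3.12% and 5.74% in the roots and 6.77%, 6.72% and 3.95% in the shoots. There the library labelled shoot 3 fell below root 3, and the organs overlapped (exact permutation p = 0.2). The 24-nt class over all sequences overlapped too (exact permutation p = 0.2). The 18-nt class, to which gma-miR6300 and bdi-miR5054 belong, held 11.0%, 39.0% and 7.87% in the roots and 1.41%, 1.86% and 13.9% in the shoots, where the organs overlap (exact permutation p = 0.3). Sequences starting with U held 79.8%, 54.8% and 83.5% in the roots and 92.5%, 92.0% and 73.8% in the shoots (exact permutation p = 0.3).

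The same organ contrast was read in control plants, from other libraries. With all 6 control libraries 0 of 56 families were called (0%, edgeR; 10 or 17.9% with an unadjusted p below 0.05, DESeq2 12, limma-voom 0). Without the library labelled control root 3, 23 of 65 were called (35.4%), 17 higher in root (26.2%) and 6 lower (9.23%). Of the 19 families called higher in root at nitrogen excess, 12 were also called higher in control (63.2% of the 19 and 70.6% of the 17). The other 7 were not tested in control because of low counts. Of the 5 called lower at nitrogen excess, 4 were called lower in control (80.0% of the 5 and 66.7% of the 6), and miR9774 was not, at -2.08 ± 1.13 (adjusted p = 0.175, edgeR). Over the 63 families tested in both conditions the differences correlated with a Pearson r of 0.894, given as a description since families of one library are not independent. The 2 libraries left out were those that went against the control shoot to root axis. The shared calls and this r are therefore not independent of that choice, and part of the agreement is built in. With all 6 libraries of each condition r was 0.643 over 52 families.

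Some families were called in one condition alone. miR166 was higher in control root by 2.04 ± 0.28 (adjusted p = 0.00184, edgeR) and by 0.53 ± 0.65 at nitrogen excess (adjusted p = 0.605, edgeR). TMM put the family at 1702600 and 1225500 CPM in control root 1 and 2, more than the total that CPM is scaled to. As a plain share of all counts, hvu-miR166b took 79.8% and 63.7% there and 47.95% to 57.5% in the control shoots. The size of this miR166 difference thus leans on the scaling. miR396 differed by -2.75 in control ± 0.73 (adjusted p = 0.0217, edgeR). The difference between the conditions was tested as an interaction over all 12 libraries. It called 0 of 73 families (0%, edgeR; 5 or 6.85% with an unadjusted p below 0.05, DESeq2 0, lowest adjusted p = 0.594, with miR528 first by unadjusted p at 0.0191), and 0 without the 2 libraries that go against their labels. No organ difference was therefore shown to depend on nitrogen supply at this replication.

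**Figure D5:**
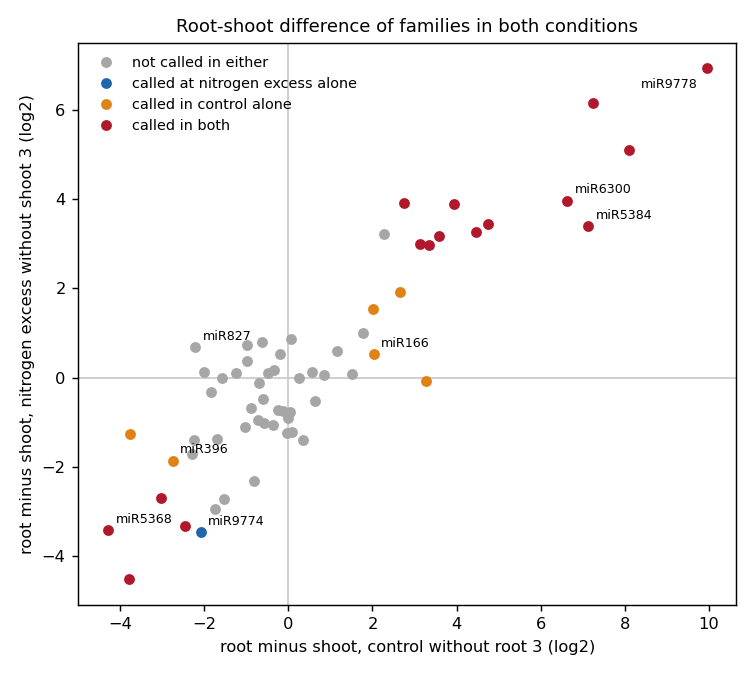
Root minus shoot difference (log2) of each of 63 families in control plants without the library labelled control root 3 (horizontal) and at nitrogen excess without the library labelled nitrogen-excess shoot 3 (vertical), coloured by the condition in which it was called. Families called in both lie in the upper right and lower left, and miR9774 is the one family called at nitrogen excess alone among those tested in both.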

How the data were processed

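Small RNA libraries (TruSeq small RNA kit, per the labels' protocols) were read from 2 deposited tables, one per organ. The deposited counts are whole numbers per listed sequence and library. The deposited signal columns are those counts divided by 1 factor per library within a table and were not used across organs. The authors' log2 fold changes and p-values compare nitrogen excess with control and were not used. The submitters' processing notes name DESeq2 alone. How reads were trimmed and counted, and with how many mismatches, is stated nowhere in the sources used here.

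The tables were joined on sequence. Families were summed by the number in the miRNA name, with miR157 joined to miR156, miR165 to miR166 and miR170 to miR171, and OLAs_528, which overlaps miR528-3p, left out. Root and shoot counts were tested with edgeR 4.0.16 (R 4.3.3) by TMM, filterByExpr (minimum count 10, total 15) and the quasi-likelihood test with Benjamini-Hochberg adjustment at 0.05. A feature is called when its adjusted p is below 0.05. Levels are CPM from edgeR after TMM, computed separately for sequences, families and each set of libraries. Differences are log2, root minus shoot, with a standard error from the F statistic. Axis positions used log2(CPM + 1). p-values measure the spread between libraries of a group, and Wilson intervals (95%) and floors (3 counts) cover counting error only.

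The main fits took root and shoot as unpaired, and the replicate number entered as a block only in alternative fits. At nitrogen excess same-numbered libraries deviated together from their group means (r = 0.486, 0.19 and 0.339 for numbers 1, 2 and 3). However, root 2 deviated at least as much like shoot 3 (r = 0.251). In control plants the same-number r was 0.508, -0.034 and 0.086. A pairing by number was thus not established. On simulated counts with 12 families changed by 3 on the log2 scale, the 6-library fit called 4 of them and no unchanged family. With 27 sequences so changed it called 0, and without shoot 3 it called 11 of 29. The simulation was a single draw with 1 common dispersion. It held no library that goes against its label and no difference between naming series, so its rates do not carry over directly to these data.

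Members, lists and tests were chosen with earlier results of these data known. Named families and sequences were at most 12 and 10 called per direction by size, the 10 most abundant families, the 2 most abundant per list and the main member of each described family. The family members compared as shares, the tRNA-like set and the motif CCA were chosen after their values were seen. Alternatives were DESeq2 1.42.0 size factors and test, limma-voom (limma 3.58.1), equal totals, 2 other filters, miR166 left out, the replicate block, the naming series and each library left out.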

Additional observations from a re-analysis of the deposited data

How the results depend on the processing

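With 6 nitrogen-excess libraries, the 0 family calls became 3 under the DESeq2 test, and 0 to 24 when 1 library was left out. The 0 sequence calls became 1 under the DESeq2 test, 18 with the replicate block, and 0 to 28 when 1 library was left out. Without the library labelled shoot 3, the 24 family calls became 10 with equal totals, 14 without a filter, 13 with at least 20 counts in 2 libraries, and 0 to 31 when a further library was left out. The 28 sequence calls became 11 with DESeq2 size factors and 8 with at least 20 counts in 2 libraries. They became 9 with miR6300 and all CCA-ending entries, miR160 ones among them, left out (chosen after seeing the data). The range was 0 to 56 when a further library was left out. The replicate block gave 22 families and 35 sequences there, and so did the naming series as a term, since it leaves root 3 alone in its series. In control, the 0 family calls became 12 under the DESeq2 test, 8 without a filter, and 0 to 23 when 1 library was left out. With the library labelled control root 3 left out, the 23 became 40 with equal totals, 40 without a filter, and 15 to 22 when a further library was left out. The interaction stayed at 0 under every alternative run. The family miR6210, at -0.43 with 6 libraries, was 7.77 without the library labelled shoot 3 and -0.69 without shoot 1. The causes were not tested. With 451297 and 245176 counts, root 1 and the library labelled shoot 3 limit what low-count sequences can show.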

Other observations

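Within miR159 the minor 5p entry bdi-miR159b-5p.1 followed the series of the library names and not the organ. It held 1.09%, 12.2% and 0.320% of miR159 counts in nitrogen-excess root 1, 2 and 3, and 0.636%, 17.9% and 11.0% in the libraries labelled shoot 1, 2 and 3. The 4 libraries of replicate 1, in both conditions, and nitrogen-excess root 3, whose names belong to other series than the rest, held at most 1.20%, while the other 7 libraries held at least 6.82%. Root and shoot of replicate 1 share a naming series, as do those of replicate 2. Within these ata-miR171a-3p held 66.4% in root against 10.03% in shoot, and 95.9% against 7.19%. Only this strand is given, and root 3 has no shoot of its own series. With 1 library per organ, such pairs cannot test whether the series plays a part in organ differences.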
